A study of Mus musculus with 2 samples.

Results

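The cells described here are 120 collagen-rich cells of the newborn mouse lung that a rule meant for adventitial-like fibroblasts selected, out of 8003 lung cells with at most 10% of their transcripts from mitochondrial genes. Markers outside the rule did not bear out that label for many members of Batch 2, which hold 77 of the 120. Of these 77, 36 had Tgfbi, listed here with myofibroblast and smooth muscle markers, and neither of the adventitial markers Dcn and Dpt. Another 12 had Dcn or Dpt without Tgfbi, 10 had both and 19 had none of the 3 genes. Members were chosen by their counts of 20 genes. A member had at least 5 unique molecular identifiers (UMIs, each standing for 1 captured transcript) of Col1a1 plus Col1a2, the chains of type I collagen, and at least 2 UMIs of Igfbp5, Igf2, Mfap5 and Pi16 together. It had under 2 UMIs of the mesothelial genes Upk3b, Msln, Upk1b, Lrrn4 and Wt1, under 2 UMIs of the alveolar fibroblast genes Tcf21, Inmt, Wnt2, Fgfr4 and Fgf10, and none of Epcam, Pecam1, Ptprc and Acta2, which mark epithelial, endothelial, immune and smooth muscle cells. Batch 1 gave 43 members among 2388 cells (1.80%, Wilson 95% interval 1.34 to 2.42) and Batch 2 gave 77 among 5615 (1.37%, 1.10 to 1.71). The intervals here and throughout cover counting error within a library only.

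The series holds 2 Drop-seq libraries, in which single cells were caught in droplets with barcoded beads and their polyadenylated transcripts counted. Each library came from the whole lung of 1 wild-type (wt) C57BL/6J mouse at postnatal day 1 (PND1), and the mice were female. Lungs were minced and digested with enzymes, and red blood cells were lysed, and the shares of cells were not corrected for how easily each type dissociates. No treatment, genotype or age was compared, so every comparison was between classes of cells of the same 2 mice.

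Fibroblasts of the adventitia lie in the connective tissue cuffs around large vessels and airways, apart from the alveolar fibroblasts of the gas exchange region. They are known for fibrillar collagens, for proteoglycans that bind collagen fibrils and for the surface protein CD34, and PI16 marks them across organs. Type I collagen forms the tension-bearing fibrils of the tissue, MFAP5 is a glycoprotein of the microfibrils on which elastic fibres form, IGF2 is a fetal growth factor, and IGFBP5 binds insulin-like growth factors and matrix.

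The members held 80331 UMIs in Batch 1 and 155986 in Batch 2, with a median of 1681 and 1842 UMIs and of 915 and 1046 genes per cell. The median mitochondrial share was 1.78% and 6.03%. The libraries shared 0 cell barcodes. Transcripts of immediate early genes, which are induced by stress such as dissociation, were higher in Batch 2 in every class, with 21.0 and 118 per 10000 UMIs in the members against 11.0 and 84.9 in alveolar-gated cells. The 5 erythroid genes fell the other way, with 260 and 116 per 10000 in the members. The library and the mouse cannot be told apart, so where the members of the batches differ, values are given for each batch.

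The members were set beside the other 1585 cells that met the collagen limit, and beside 3 classes within them. Alveolar-gated cells (747) had at least 2 UMIs of the alveolar genes, whatever their positive genes, and met the limits on epithelial, endothelial, immune, mesothelial and smooth muscle genes. Igfbp5 was found in 15 of 342 and 48 of 405 of them and Mfap5 in 11 and 32, so they differ from the members in the positive genes too. Acta2-positive cells (392) had at least 1 UMI of Acta2, whatever their alveolar genes, and met the limits on epithelial, endothelial, immune and mesothelial genes. Low-gate cells (262) met every limit except that they had under 2 UMIs of the 4 positive genes. Levels are given as UMIs per 10000 UMIs of all cells of a class in a library, Batch 1 before Batch 2, and a lower level can come from fewer cells with the gene or from fewer transcripts in each, which such sums do not separate.

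The 20 genes of the rule separated the members by construction, so their values are a description with no test. Col1a1 (chromosome 11, 94936224 to 94953042 of GRCm38) stood at 85.9 and 19.7 in the members and at 17.8 and 8.13 in alveolar-gated cells. Col1a2 (chromosome 6, 4504814 to 4541544) stood at 179 and 61.8, against 42.6 and 38.1. The collagen level was thus high in Batch 1 members and nearer to that of Acta2-positive cells in Batch 2, where Col1a2 was 61.8 in members and 55.1 in Acta2-positive cells. A member had between 5 and 179 UMIs of both chains, with a median of 33 in Batch 1 and 11 in Batch 2.

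Among the positive genes, Igfbp5 (chromosome 1, 72857932 to 72874884) was at 20.5 and 14.0 in the members and was found in 30 of 43 and 49 of 77 of them. Igf2 (chromosome 7, 142650766 to 142666816) was at 5.98 and 8.27, in 20 and 51 members. Mfap5 (chromosome 6, 122505845 to 122529290) was at 15.4 and 4.23, in 29 and 19 members. Pi16 (chromosome 17, 29317680 to 29330593), the gene most tied to the adventitia, had 5 UMIs in 5 Batch 1 members and 1 UMI in 1 Batch 2 member.

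The members of the batches entered by different genes. Mfap5 or Pi16 was present in 30 of 43 members of Batch 1 (69.8%, 54.9 to 81.4) but in 19 of 77 of Batch 2 (24.7%, 16.4 to 35.4). Igf2 was the single positive gene of 2 members in Batch 1 and of 24 in Batch 2, and Igfbp5 was the single one of 7 and 15. If Igf2 were not counted, 39 of 43 and 44 of 77 members would still pass. The plot of members by positive gene shows this shift.

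**Figure D1:**
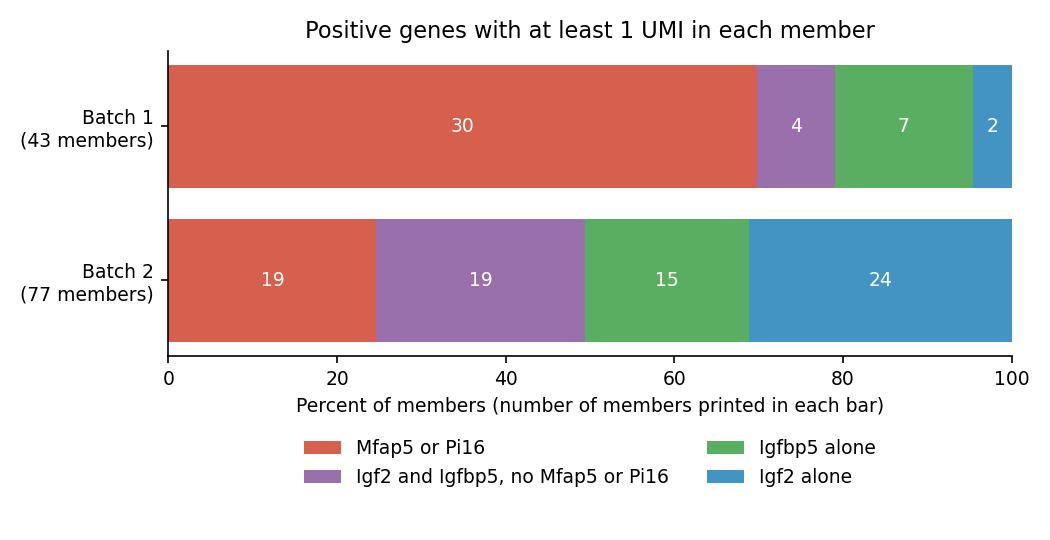
Percent of members (x axis) in each library (y axis) by which of the 4 positive genes had at least 1 UMI, with the number of members in each block. Members with Mfap5 or Pi16 make up 69.8% of Batch 1 and 24.7% of Batch 2, and the block that carried Igf2 alone grows from 2 to 24 cells.

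Several members lay at the limits. At exactly 2 UMIs of the positive genes there were 11 members in Batch 1 and 31 in Batch 2, and just outside, with 1 UMI and every other limit met, there were 11 and 63 cells. At exactly 5 collagen UMIs there were 4 and 4 members, and at 4 UMIs 2 and 15 cells. Cells with 2 UMIs of the alveolar genes that met all other limits numbered 6 and 11, and those with 1 UMI of Acta2 numbered 8 and 11.

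The adventitial label was then checked against markers that the rule did not use. Over 18 such markers the members held 87.1 UMIs per 10000 in Batch 1 and 23.1 in Batch 2, against 36.3 and 32.6 in alveolar-gated cells, 32.3 and 18.0 in Acta2-positive cells and 19.2 and 9.13 in low-gate cells. The Batch 1 members thus stood above all 3 classes, and the Batch 2 members below the alveolar-gated cells. Endothelial-gated cells, which are not fibroblasts, held 22.1 and 29.6, also above the Batch 2 members in Batch 2. The sum alone is thus no measure of adventitial identity. Dcn, which encodes decorin, a proteoglycan on collagen fibrils, was at 20.7 (17.6 to 24.1) and 3.21 (2.38 to 4.23) in the members. Dpt, which encodes the matrix protein dermatopontin, was at 17.4 (14.7 to 20.6) and 2.69 (1.94 to 3.64), and in alveolar-gated cells it was at 6.53 and 4.33. A single Batch 2 member held 30 UMIs of Dcn and 17 of Dpt. No other Batch 2 member had more than 4 of Dcn or 5 of Dpt. The Batch 2 levels of both genes, here and in the comparisons below, thus rest in large part on 1 cell. The defining markers Thy1, Ebf2, Entpd2 and Sfrp2 had between 0 and 8 UMIs in either library, and Dpp4 had 1 and 2.

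A second marker went against the label in Batch 2. Tgfbi, which encodes a secreted matrix protein and which was listed here among myofibroblast and smooth muscle markers, was at 16.6 (13.9 to 19.6) in the Batch 1 members and at 41.1 (38.0 to 44.4) in the Batch 2 members. Low-gate cells held 38.5 and 44.3, Acta2-positive cells 22.2 and 26.0, and alveolar-gated cells 0.514 and 0.128. In cells, Tgfbi was found in 10 of 43 members (23.3%) and in 46 of 77 (59.7%), against 2.63% and 2.72% of alveolar-gated cells, the class with the lowest share. It was found in 49.2% and 58.8% of low-gate cells and in 32.0% and 36.3% of Acta2-positive cells. Endothelial-gated cells had it in 9.18% and 34.1%, so Tgfbi was not confined to the contractile classes and its share rose in Batch 2 there too. After every cell was thinned to 1000 UMIs, 39 and 68 members were left. The shares of members with Tgfbi were then 23.1% and 57.4%, so they changed little with depth.

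Few members had both Tgfbi and Dcn or Dpt, but in Batch 1 these were 7 of the 10 members with Tgfbi. Whether the overlap differed from what the separate shares of the genes would give was not tested. In Batch 1, 29 of 43 members (67.4%) had Dcn or Dpt without Tgfbi, 3 had Tgfbi without Dcn or Dpt, 7 had both and 4 had neither. In Batch 2, 12 of 77 (15.6%) had Dcn or Dpt without Tgfbi, 36 (46.8%) had Tgfbi without Dcn or Dpt, 10 had both and 19 had neither. Endothelial-gated cells, which should lack Dcn and Dpt, had a UMI of either in 1.40% and 0.952% of cells at median depths of 1379 and 2010.5 UMIs, so the shares in members lay above that background. Alveolar-gated cells, in which Dpt is common, had a UMI of either in 54.1% and 44.4% of cells. Acta2-positive cells had one in 48.5% and 34.1%, and low-gate cells in 28.6% and 15.1%. Dcn or Dpt alone thus did not set the Batch 2 members apart from alveolar-gated or Acta2-positive cells. The members are therefore called by their rule here, and "adventitial" is kept for the marker list.

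**Figure D2:**
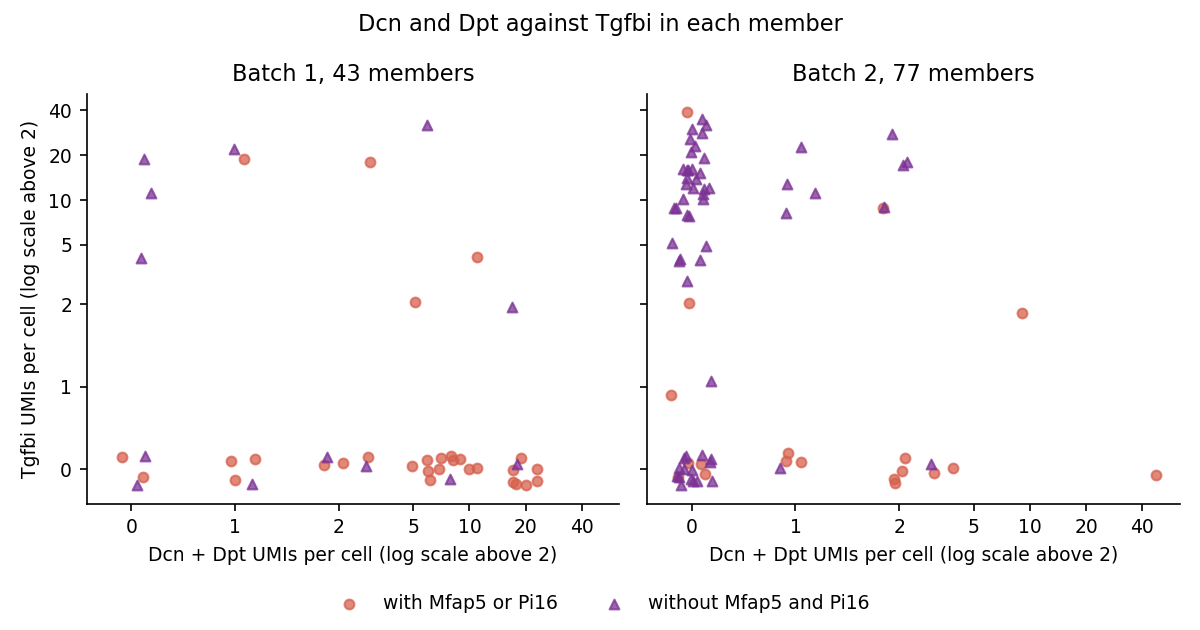
UMIs of Tgfbi (y axis) against UMIs of Dcn plus Dpt (x axis) in each member of Batch 1 and Batch 2, both on a scale that is logarithmic above 2, with points moved slightly apart and members that carried Mfap5 or Pi16 drawn as circles, the others as triangles. Most Batch 1 members lie along the x axis (29 of 43 have Dcn or Dpt and no Tgfbi) and the largest group of Batch 2 lies along the y axis (36 of 77 have Tgfbi and neither Dcn nor Dpt).

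The shares with Dcn or Dpt and with Tgfbi differed by Mfap5 and Pi16 in both libraries. These are genes of the rule, and members without them had reached its 2 UMIs by Igf2 and Igfbp5 alone. The kinds of member therefore differ by construction in the genes that admitted them, and the part of that in the differences below was not tested. Of the 49 members with Mfap5 or Pi16, 40 had Dcn or Dpt and 9 had Tgfbi. Of the 71 members without them, 18 had Dcn or Dpt and 47 had Tgfbi. Within Batch 1, Tgfbi was found in 4 of 30 members with Mfap5 or Pi16 and in 6 of 13 without, and within Batch 2 in 5 of 19 and in 41 of 58. The members with Mfap5 or Pi16 were deeper, with medians of 1875 and 2231 UMIs against 1480 and 1743.5, and at 1000 UMIs per cell Tgfbi was found in 14.3% and 20% of them against 45.5% and 67.9%.

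Summed per library, the members with Mfap5 or Pi16 differed from those without in 60 genes outside the rule at an adjusted p under 0.05 (edgeR quasi-likelihood test with the library as block), of 6222 tested. The 29 that were higher make up 0.466% of genes tested and the 31 that were lower 0.498%. The median log2 fold change of all genes was -0.13, or -0.07 with genes at 0 in 1 class set to the limit that 3 UMIs allow. The count was 9 with a collagen limit of 10 UMIs, 5 with a mitochondrial limit of 5% and 0 by edgeR without the library block (506 genes at an unadjusted p under 0.05), and the differences between libraries correlated at 0.10 between the kinds of member. Mfap5 and Pi16 are counts in the same cells, and the part of the depths given above in this split was not tested.

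Several adventitial markers were higher with Mfap5 or Pi16. Both of these genes are themselves on the adventitial list, so counts of its other markers by this split, here and below, are no independent check of the label. Of the 18 outside the rule, 15 passed the filter on low counts, and 6 of these were higher, none was lower and 9 did not pass the test, with a median log2 fold change of 2.02. Dcn was at 22.9 and 8.96 in the members with Mfap5 or Pi16 and at 14.5 and 0.816 in those without (log2 fold change 1.90 ± 0.46 SE, adjusted p = 0.0374). Dpt was at 19.5 and 7.65 against 11.7 and 0.635 (2.02 ± 0.46, adjusted p = 0.0243). The Batch 2 member with 30 UMIs of Dcn and 17 of Dpt carried Mfap5 and Pi16, so it lies behind the levels of 8.96 and 7.65. Gsn, which encodes the actin-severing protein gelsolin, was at 26.5 and 24.7 against 12.2 and 2.54 (2.41 ± 0.34, adjusted p = 0.000101). Cd34 was at 3.05 and 1.75 against 0.467 and 0.0907, and Clec3b, the gene of tetranectin, at 6.45 and 4.15 against 3.74 and 0.0907. The sixth, Ly6a, the gene of the surface antigen Sca-1, was at 1.02 and 1.97 against 0 and 0.0907 (4.41 ± 1.03, adjusted p = 0.0272). For each of these 6 genes both libraries had the higher level with Mfap5 or Pi16, and the ratio was larger in Batch 2 for Dcn, Dpt, Gsn, Cd34 and Clec3b. In Batch 1, Gsn was found in 89.5% of alveolar-gated cells against 72.1% of all members, and Clec3b in 57.3% against 41.9%. Neither gene thus set the Batch 1 members apart from that class.

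Ptn and several matrix genes were higher on the same side. Ptn, the gene of the heparin-binding growth factor pleiotrophin, was at 6.11 and 14.2 against 2.80 and 0.0907 (log2 fold change 4.13 ± 0.70, adjusted p = 0.00122). Col3a1, the type III collagen chain that forms fibrils with type I, was at 152 and 50.3 against 71.5 and 20.6 (1.41 ± 0.24, adjusted p = 0.00139). The Batch 2 member with 30 UMIs of Dcn held 77 of the Col3a1 UMIs behind the level of 50.3. No other Batch 2 member with Mfap5 or Pi16 had more than 18. Postn, the gene of periostin, was at 19 and 10.1 against 2.34 and 3.63 (2.25 ± 0.39, adjusted p = 0.00139). Lox, which encodes the lysyl oxidase that cross-links collagen and elastin, was at 7.47 and 23.2 against 3.27 and 4.81. The heparan sulfate proteoglycan gene Gpc3 was at 17.0 and 10.3 against 8.41 and 0.363, the receptor gene Agtr2 at 3.56 and 1.97 against 0.935 and 0.181, and the membrane protein gene Itm2a at 12 and 4.15 against 1.87 and 0.816. Aebp1, Cdh11, Akap12, S100a6, Ogn, Fn1, Mgp and Dlk1 were also higher at an adjusted p under 0.05. Prss12 had 9 UMIs in Batch 1 and 6 in Batch 2, all of them in members with Mfap5 or Pi16, and a count of 0 allows up to 3 UMIs.

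Tgfbi, Enpp2 and Rgs2 were among the genes on the other side. Tgfbi was at 7.30 and 11.6 in the members with Mfap5 or Pi16 and at 42.1 and 53.3 in those without (log2 fold change -2.25 ± 0.31, adjusted p = 7.85e-05). Enpp2, the gene of autotaxin, which makes lysophosphatidic acid, was at 0.509 and 0.219 against 4.67 and 12.4 (-4.43 ± 0.60, adjusted p = 7.85e-05). Rgs2, a regulator of G protein signalling, was at 0 and 1.31 against 2.34 and 36.9 (-4.93 ± 0.58, adjusted p = 6.02e-06). Gucy1a3, a subunit of the nitric oxide receptor, was at 0.679 and 1.09 against 2.80 and 8.16, and the transcription factor gene Tbx5 at 0.170 and 0 against 1.40 and 2.72. Igfbp3 was at 2.55 and 8.09 against 3.74 and 28.3 (-1.40 ± 0.33, adjusted p = 0.0281). Nebl, Pgf, Itga9 and Cops8 had 0 UMIs in the members with Mfap5 or Pi16 of both libraries. Ednrb, an endothelin receptor gene, was at 0 in every Batch 1 member and had its 44 UMIs in Batch 2 members without Mfap5 and Pi16. Agt, the gene of angiotensinogen, and Gpr64, Gm13889, Net1 and the immediate early gene Jun were lower as well, Jun at 2.71 and 10.1 against 8.41 and 31.2. Of 13 myofibroblast and smooth muscle markers tested, 2 were lower (Tgfbi and Ednrb) and none higher, with a median of -2.03. Of 14 alveolar markers Fn1 and Gpc3 were higher and Enpp2 and Tbx5 lower. Of 10 pericyte markers 1 was lower (Gucy1a3) and 1 higher (Postn, which is also a matrix gene of fibroblasts).

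Since the low-gate cells had met the same limits apart from the positive genes, the members as a whole were next set beside them. Outside the rule 14 genes were higher (0.213% of 6585 tested) and 1 was lower (0.0152%). Dcn was at 20.7 and 3.21 in members and at 2.83 and 0.394 in low-gate cells (log2 fold change 3.07 ± 0.47, adjusted p = 0.0036). Ptn was at 5.23 and 4.23 against 1.48 and 0.303 (2.98 ± 0.48, adjusted p = 0.0064). Akap12, a scaffold protein gene, was at 14.1 and 4.87 against 2.59 and 0.971 (2.52 ± 0.36, adjusted p = 0.00146). Col3a1 was at 131 and 29.3 against 27.8 and 15.9 (1.77 ± 0.31, adjusted p = 0.0126). Dpt, Clec3b, Gsn, Cd34, Gpc3, Tm4sf1, S100a6, Aebp1, Igfbp4 and Fstl1 were the other higher genes. Of 15 adventitial markers tested 5 were higher (Cd34, Clec3b, Dcn, Dpt and Gsn) and none lower, with a median of 1.95 against -0.01 for all genes. The lower gene was Hbb-bt, a haemoglobin gene whose reads can be shared with its near-identical copies, at 46.4 and 22.9 against 157 and 57.5. The low-gate cells were shallower, with medians of 1103 and 1580 UMIs. Without the library block no gene was called by edgeR, with 254 at an unadjusted p under 0.05, and without a mitochondrial limit 3 were.

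The members with and without Mfap5 or Pi16 were then compared with low-gate cells apart, a comparison added after the values above had been seen. The members with Mfap5 or Pi16 differed from low-gate cells in 143 genes outside the rule, 67 higher (1.08% of 6222 tested) and 76 lower (1.22%). For the members without them edgeR called no gene in either direction (0% higher and 0% lower), with 253 genes at an unadjusted p under 0.05. DESeq2 called 138 and 0, with 181 at an unadjusted p under 0.05 for the latter. Over both libraries the members without Mfap5 and Pi16 were the larger sum, with 71 cells and 131646 UMIs against 49 cells and 104671 UMIs. In Batch 1, however, they were the smaller, with 13 cells and 21399 UMIs against 30 cells and 58932 UMIs. Their Batch 1 sum was the smallest in the fit, which limits what could be called for them. An adjusted p above the threshold does not show that these cells are alike, and their direct comparison with the other members is the test given above.

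Gsn, Ptn and Tgfbi show the same split, while for Dcn both kinds of member lay above low-gate cells and only the call differed. Against low-gate cells, Dcn had a log2 fold change of 3.63 ± 0.47 for members with Mfap5 or Pi16 (adjusted p = 1.02e-05) and of 1.73 ± 0.55 for members without (adjusted p = 0.97). Gsn gave 2.29 ± 0.30 (adjusted p = 1.16e-05) and -0.11 ± 0.36 (adjusted p = 1). For Ptn the values were 3.99 ± 0.57 (adjusted p = 4.3e-05) and -0.14 ± 0.94 (adjusted p = 1). For Tgfbi they were -2.19 ± 0.30 (adjusted p = 3.46e-05) and 0.05 ± 0.27 (adjusted p = 1). Of 15 adventitial markers 8 were higher for the members with Mfap5 or Pi16 (Cd34, Clec3b, Col14a1, Cygb, Dcn, Dpt, Gsn and Ly6a), with a median of 2.41, and none for the members without, with a median of 0.53 (0.56 with genes at 0 set to their limit). Of 10 pericyte markers 5 were lower and 1, Postn, was higher for the former, and none was called for the latter.

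**Figure D3:**
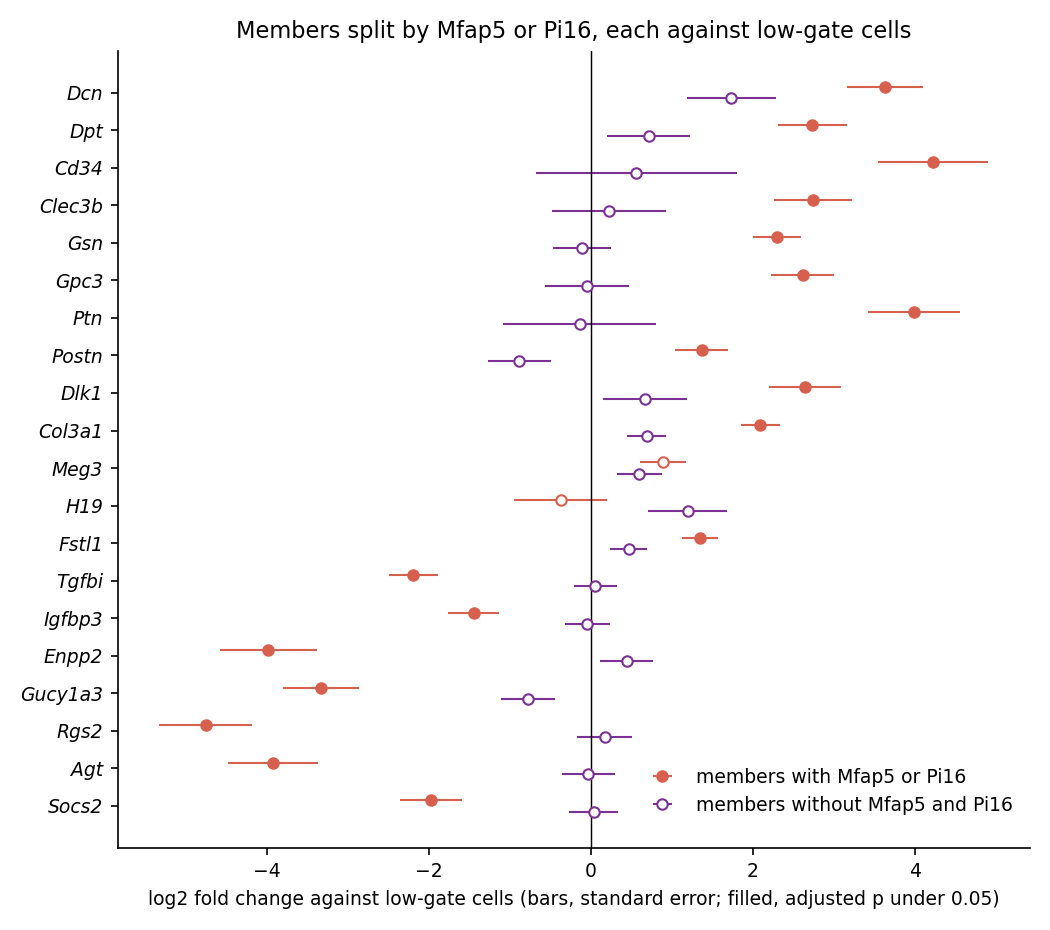
Log2 fold change against low-gate cells (x axis, points with bars of 1 SE) of 20 genes (y axis), for the 49 members with Mfap5 or Pi16 and the 71 members without, filled where the adjusted p is under 0.05. Dcn, Gsn and Ptn lie to the right and Tgfbi and Enpp2 to the left for the members with Mfap5 or Pi16, and no point of the members without is filled.

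The comparison that the rule names, with all other collagen-limit cells, gave 57 higher genes (0.753% of 7568 tested) and 100 lower genes (1.32%) outside the rule, with a median log2 fold change of -0.05. It rests on 4 sums, and edgeR called no gene without the library block (390 at an unadjusted p under 0.05), 25 without cells of very high depth and DESeq2 38. The comparison class is itself mixed, being mostly alveolar-gated and Acta2-positive cells, and it holds the cells of other lineages that the rule removed. Among the lower genes were accordingly Sftpc, Sftpa1 and Ager of epithelial cells and Egfl7 and Lyve1 of endothelial cells.

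Dcn and Ptn were again among the genes with the largest fold change. Dcn was at 20.7 and 3.21 in members against 1.92 and 0.833 in the other cells (log2 fold change 2.66 ± 0.29, adjusted p = 3.99e-13). Ptn was at 5.23 and 4.23 against 0.610 and 0.649 (2.81 ± 0.31, adjusted p = 1.23e-12). Itm2a was at 9.34 and 1.80 against 0.962 and 1.24. Penk, the gene of the opioid precursor proenkephalin, was at 2.24 and 2.18 against 0.386 and 0.741. Kdelr3, a receptor that returns proteins to the endoplasmic reticulum, was at 2.12 and 1.35 against 0.489 and 0.404. Of 14 adventitial markers tested 6 were higher (Cd34, Cygb, Dcn, Lum, Scara5 and Serpinf1) and none lower, with a median of 0.88. Scara5 stood at 1.37 and 2.44 in all members but at 1.70 and 0 in those with Mfap5 or Pi16, so in Batch 2 it lay in the members without them.

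**Figure D4:**
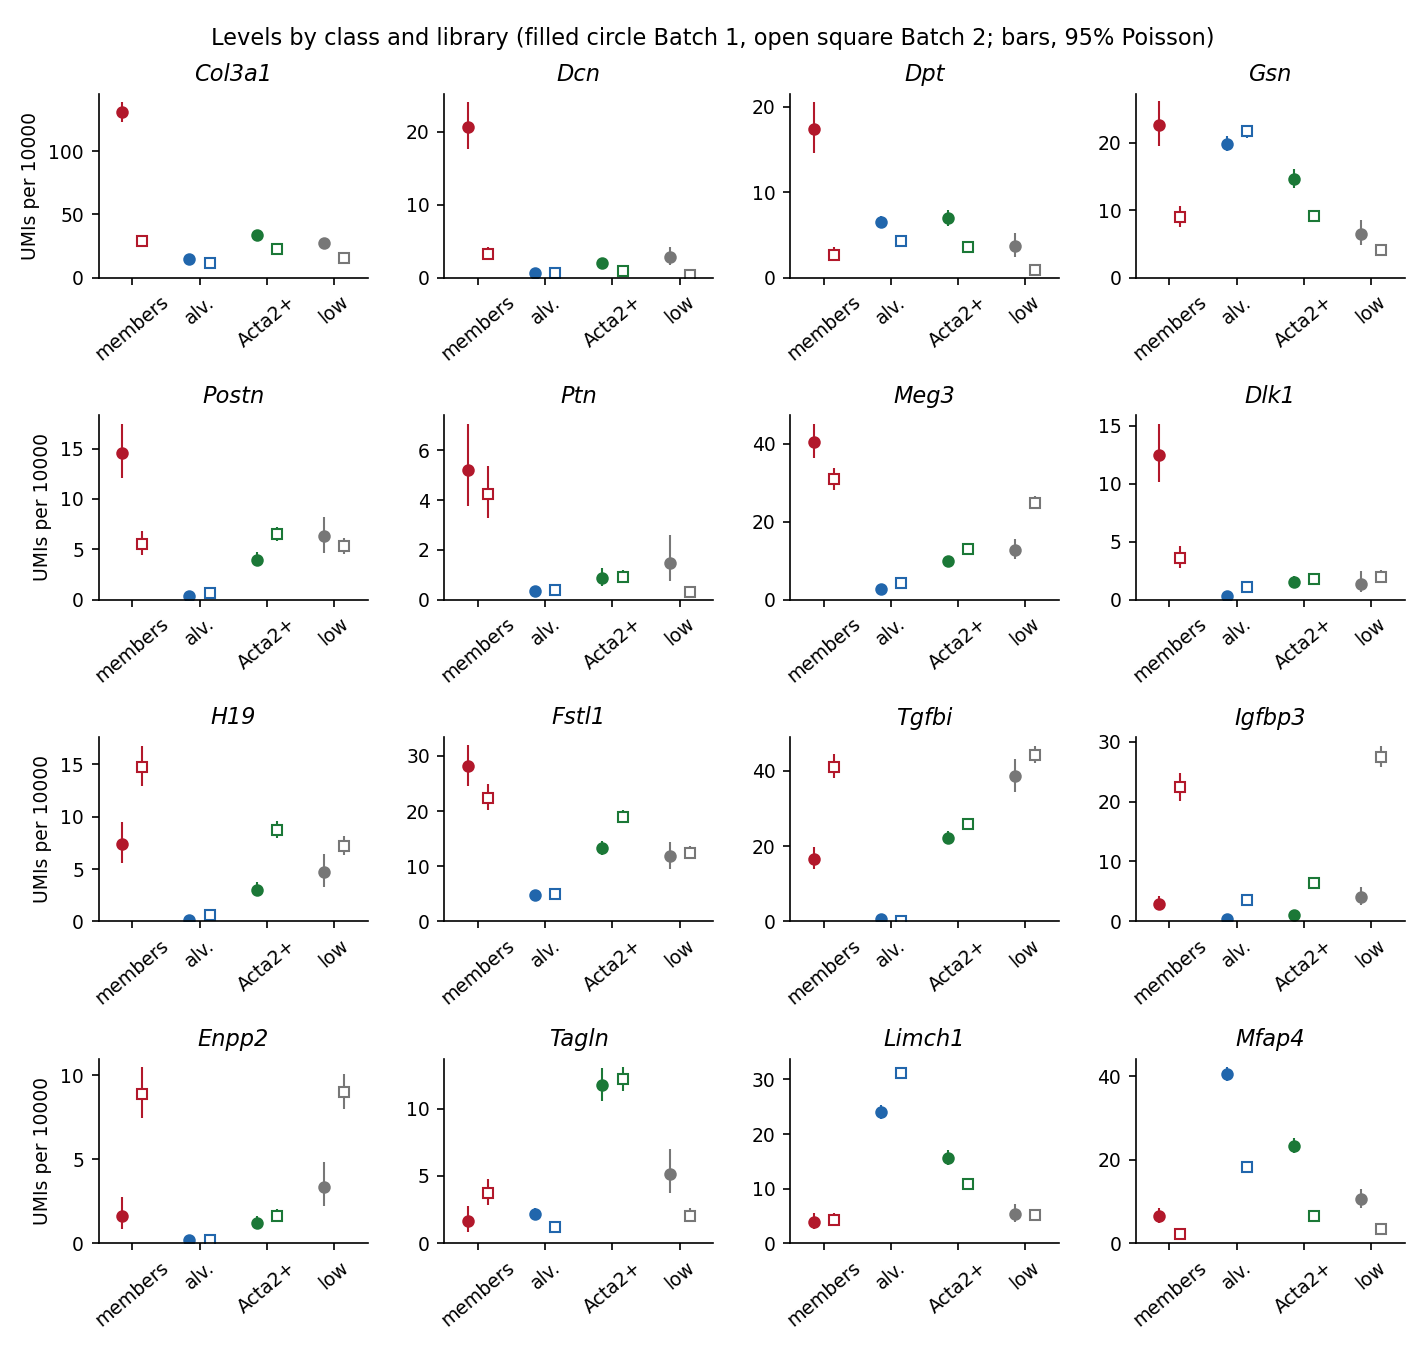
UMIs per 10000 (y axes) of 16 genes in members, alveolar-gated, Acta2-positive and low-gate cells of Batch 1 and Batch 2, with exact Poisson 95% intervals of counting error as bars. Dcn and Col3a1 are far higher in the Batch 1 members (20.7 and 131) than in the Batch 2 members (3.21 and 29.3), and Tgfbi is the other way round (16.6 and 41.1).

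Among collagens outside the rule, Col3a1 was at 131 and 29.3 in members against 21.6 and 15.7 in the other collagen-limit cells (log2 fold change 1.68 ± 0.24, adjusted p = 3.16e-08). Col5a1, a chain of the collagen that starts fibrils, was at 7.97 and 2.05 against 1.91 and 1.28 (1.33 ± 0.31, adjusted p = 0.00252). Col13a1, a transmembrane collagen found on alveolar fibroblasts, was lower, at 0.747 and 0.0641 against 4.78 and 1.73 (-3.33 ± 0.47, adjusted p = 1.72e-08). The other 12 of 15 collagen genes tested did not pass, and the median was 0.47. Of 26 genes of collagen synthesis and cross-linking 2 were higher and none lower, with a median of 0.50. These were Loxl2, a lysyl oxidase, at 4.36 and 9.81 against 2.46 and 3.32 (1.17 ± 0.28, adjusted p = 0.00388), and Sparc, a collagen-binding protein, at 97.8 and 48.1 against 39.0 and 35.7 (0.80 ± 0.22, adjusted p = 0.021). Serpinh1, the collagen chaperone gene, did not pass, at 10.1 and 3.53 against 4.46 and 2.76 (0.70 ± 0.27, adjusted p = 0.236).

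Of 9 small leucine-rich proteoglycan genes tested, Dcn, Lum and Podn were higher and none was lower. Lum, the gene of lumican, was at 2.74 and 0.256 against 0.223 and 0.0746 (log2 fold change 2.92 ± 0.58, adjusted p = 0.000214), and the Batch 2 value is 4 UMIs. Of 16 elastic fibre genes the fibulin and fibrillin genes Fbln1 and Fbn2 were higher and Mfap4 was lower. Mfap4, of the elastic fibre but an alveolar marker here, was at 6.47 and 2.24 against 29.6 and 11.3 (-2.33 ± 0.26, adjusted p = 1.23e-12). Of 19 other matrix genes, Fndc1, Postn, Thbs2 and Vcan were higher and none was lower. Postn was at 14.6 and 5.51 against 1.93 and 2.97 (1.83 ± 0.29, adjusted p = 7.47e-07).

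The lower genes with the largest fold changes included G0s2, Hsd11b1 and Gyg of metabolism and several alveolar markers. G0s2, an inhibitor of fat breakdown, was at 0.498 and 0.385 in members against 6.01 and 5.25 (log2 fold change -3.77 ± 0.40, adjusted p = 2.16e-13). Hsd11b1, which activates glucocorticoids, was at 0.373 and 0.449 against 3.71 and 3.88, and Gyg, which primes glycogen, at 1.12 and 0.449 against 8.96 and 3.75. Npnt, the gene of the integrin ligand nephronectin, was at 0.249 and 0.898 against 6.18 and 3.58. Cited2, Maf, Adarb1, Macf1 and Sept4 were also among them. Of 14 alveolar markers outside the rule, G0s2, Limch1, Mfap4 and Npnt were lower and Enpp2 was higher. Enpp2 stood at 1.62 and 8.85 in members, and as given above it lay in the members without Mfap5 and Pi16.

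Of 15 imprinted growth genes tested, which are read from 1 parental copy and fall after birth in many tissues, 4 were higher in the members than in the other collagen-limit cells (Dlk1, H19, Meg3 and Rian), none was lower and 11 did not pass, with a median of 0.52. Meg3, a long noncoding RNA of the Dlk1 locus (chromosome 12, 109541001 to 109571726), was at 40.5 (36.2 to 45.1) and 30.8 (28.1 to 33.7) against 6.89 and 11.3 (log2 fold change 1.92 ± 0.24, adjusted p = 1.36e-10). Rian, from the same locus, was at 3.61 and 2.63 against 0.541 and 0.605 (2.32 ± 0.34, adjusted p = 1.01e-07). Dlk1, which encodes a Notch-family ligand, was at 12.4 and 3.59 against 1.14 and 1.79 (2.16 ± 0.31, adjusted p = 5.57e-08). H19 (chromosome 7, 142575529 to 142578143), the noncoding neighbour of Igf2, was at 7.34 and 14.7 against 2.07 and 4.22 (1.74 ± 0.26, adjusted p = 1.44e-07). Cells with Igf2 were selected by the rule, and the part of that choice in the level of H19 was not tested.

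These genes did not all follow the Mfap5 and Pi16 split. Meg3 was at 44.6 and 22.7 in members with Mfap5 or Pi16 and at 29.0 and 34.2 in those without (log2 fold change 0.29 ± 0.29, adjusted p = 0.756), so the batches ran in opposite directions. Dlk1 was higher with Mfap5 or Pi16, at 15.6 and 5.47 against 3.74 and 2.81 (1.97 ± 0.49, adjusted p = 0.041). H19 was at 7.30 and 0.656 against 7.48 and 20.6 and did not pass (-1.57 ± 0.57, adjusted p = 0.231). Against low-gate cells none of 15 imprinted genes was called for the members as a whole, with Meg3 at 12.8 and 24.8 in those cells (1.03 ± 0.25, adjusted p = 0.0831).

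In the insulin-like growth factor system, of which Igf2 and Igfbp5 belong to the rule, 14 other genes were tested against the other collagen-limit cells. The ligand Igf1 was higher, at 2.74 and 4.17 against 1.66 and 1.48 (log2 fold change 1.09 ± 0.31, adjusted p = 0.0305). The binding protein gene Igfbp3 was higher, at 2.86 and 22.4 against 0.919 and 8.12 (1.46 ± 0.27, adjusted p = 4.17e-05), and low-gate cells had 4.06 and 27.5. Igfbp2 was higher at 0.249 and 2.12 against 0.155 and 0.483, where the Batch 1 value is 2 UMIs. Igfbp4 did not pass against this class but did against low-gate cells, at 6.72 and 5.39 against 2.09 and 2.46 (1.44 ± 0.28, adjusted p = 0.0268). Igfbp7 stood at 18.1 and 5.39 and Igfbp6 at 1.37 and 0.449, and neither was called in any of the comparisons of all members.

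Against alveolar-gated cells alone, 204 genes were higher (3.10% of 6585 tested) and 190 lower (2.89%), with a median of -0.02. Tgfbi had the largest fold change of the named higher genes, at 16.6 and 41.1 against 0.514 and 0.128 (log2 fold change 6.40 ± 0.46, adjusted p = 4.67e-08). Fndc1, H19, Enpp2, Sema3c, Postn, Net1, Rian, Olfml2b and Pxdn followed. Sema3c, a guidance ligand, was at 1.24 and 1.80 against 0.103 and 0.0425, and Pxdn, which cross-links collagen IV, at 1.12 and 1.73 against 0.120 and 0.0957. Of 11 pericyte markers 8 were higher (Cox4i2, Cspg4, Gucy1a3, Gucy1b3, Kcnj8, Notch3, Pdgfrb and Postn) and none lower, with a median of 2.41. Of 13 myofibroblast and smooth muscle markers 5 were higher (Actg2, Des, Mustn1, Myh11 and Tgfbi) and none lower, with a median of 2.08. Pdgfrb, the receptor that defines mural cells and many fibroblasts, was at 1.12 and 1.47 against 0.154 and 0.234 (2.55 ± 0.49, adjusted p = 0.00264). Myh11, the smooth muscle myosin gene, was at 0.498 and 1.86 against 0.0343 and 0.0744 (4.26 ± 0.56, adjusted p = 4.92e-05). Of 15 adventitial markers 4 were higher (Cd34, Dcn, Lum and Serpinf1) and none lower, with a median of 1.43.

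The lower genes of that comparison were led by Slc38a5, an amino acid transporter gene, which had 0 UMIs in the members of both libraries against 1.82 and 1.16 per 10000 in alveolar-gated cells. G0s2 was at 0.498 and 0.385 against 7.90 and 8.88 (log2 fold change -4.42 ± 0.46, adjusted p = 3.31e-06). Fgfr3, a fibroblast growth factor receptor gene, was at 0.249 and 0.0641 against 1.52 and 1.22, and the transcription factor gene Meox2 at 0.249 and 0.0641 against 2.59 and 0.638. Hp, Cited2, Col13a1, Hsd11b1, Gyg, Maf and Enpep were the others named by the rule of size. Of 14 alveolar markers outside the rule 7 were lower (Fn1, G0s2, Itga8, Limch1, Mfap4, Npnt and Plin2) and 1 was higher (Enpp2). These cells were gated on alveolar genes, and the part of the gate in these differences was not tested.

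Signalling and transcription factor genes were called mainly against alveolar-gated cells. Of 25 transcription factors, Ebf1, Gata6, Klf2, Klf4 and Twist2 were higher and Meox2, Nr2f2 and Tbx2 lower. Ebf1 was at 1.24 and 1.54 against 0.0685 and 0.223 (log2 fold change 3.02 ± 0.46, adjusted p = 0.000297). Gata6 was at 2.74 and 0.192 against 0.0685 and 0.181, so its difference lay in Batch 1. Of 19 genes of the TGF-beta and BMP pathways, Bmp2, Fst, Fstl1, Id2 and Ltbp2 were higher. Fstl1, a secreted glycoprotein gene, was at 28.1 and 22.4 against 4.85 and 5.03 (2.21 ± 0.23, adjusted p = 3.07e-06), and it was also higher against low-gate cells, at 11.8 and 12.4 (1.13 ± 0.23, adjusted p = 0.0297). Of 14 genes of FGF, hedgehog and platelet-derived growth factor signalling, Fgf18, Pdgfrb, Spry1 and Spry2 were higher and Fgfr3 lower. Of 9 WNT genes Wif1 was higher, with 3 and 6 UMIs in members. Of 10 chemokine and complement genes, C1s and Cxcl12 were higher and Serping1 lower, with Cxcl12 at 4.73 and 1.15 against 0.531 and 0.298 (2.56 ± 0.60, adjusted p = 0.0114).

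Some matrix genes differed from alveolar-gated cells, most of them higher in the members. Of 15 collagen genes Col3a1, Col4a1, Col4a2, Col5a1 and Col12a1 were higher and Col13a1 lower, with a median of 0.73, or 0.62 with genes at 0 set to their limit. Of 27 synthesis and cross-linking genes, Loxl2, Loxl3, P4ha3, Serpinh1 and Sparc were higher and Pcolce2 lower. Serpinh1 was at 10.1 and 3.53 against 3.67 and 2.14 (log2 fold change 0.97 ± 0.26, adjusted p = 0.0285). Of 20 other matrix genes 8 were higher (Fndc1, Mmp14, Postn, Thbs1, Thbs2, Timp3, Tnxb and Vcan) and Fn1 was lower. Of 16 elastic fibre genes Fbln1, Fbln2, Fbn2, Ltbp2 and Mfap2 were higher and Mfap4 lower, and the list summed to 46.9 and 40.4 in the members against 64.3 and 52.0 in alveolar-gated cells. Tnxb, the gene of tenascin X, rested on Batch 1 members with 20 UMIs against 0 in Batch 2. Lox stood at 6.35 and 10.2 against 3.20 and 15.4, opposite in the batches, and was not called (-0.05 ± 0.30, adjusted p = 0.962).

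Acta2-positive cells were the class that fewest genes set apart from the members after low-gate cells. In this comparison 10 genes were higher (0.152% of 6585 tested) and 19 lower (0.289%), with a median of -0.03. Dcn was at 20.7 and 3.21 against 1.97 and 0.948 (log2 fold change 2.65 ± 0.42, adjusted p = 0.0021). Meg3 was at 40.5 and 30.8 against 9.85 and 13.0 (1.63 ± 0.25, adjusted p = 0.0021). Agtr2, Itm2a, Ptn, Dlk1, Enpp2, Rian, Cd34 and Igfbp3 were the other higher genes. Ptn and Enpp2 lay in opposite kinds of member, and for Ptn the fold change against Acta2-positive cells was 3.35 ± 0.47 for members with Mfap5 or Pi16 and -0.78 ± 0.83 for members without, while for Enpp2 it was -1.93 ± 0.71 and 2.49 ± 0.35. Lower were the contractile genes Tagln, Cnn1 and Actg2, along with Cnn2, Nexn, Tpm1, Tagln2 and Mylk. Tagln, the gene of transgelin, was at 1.62 and 3.72 against 11.7 and 12.2 (-2.08 ± 0.36, adjusted p = 0.00608). The absence of Acta2 was a limit of the rule, and the part of that limit in the contractile genes was not tested. G0s2, Hsd11b1, Gyg, Maf, Sept4 and Mfap4 were lower too. Without the library block no gene was called by edgeR, with 240 at an unadjusted p under 0.05.

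Summed by list, markers of contractile and mural cells were not low in the members, but single genes weighed heavily in the sums. The 14 myofibroblast and smooth muscle markers outside the rule summed to 34.9 and 71.0 per 10000 with 3 and 0 of them at 0, against 65.2 and 68.4 in Acta2-positive cells, 73.9 and 64.0 in low-gate cells and 8.38 and 10.5 in alveolar-gated cells. The 13 pericyte markers summed to 19 and 22.5 with 4 and 0 at 0, against 24.0 and 41.4 in low-gate cells, 7.18 and 20.1 in Acta2-positive cells and 1.51 and 3.72 in alveolar-gated cells. At the levels given above, Tgfbi held a large part of the myofibroblast and smooth muscle sum in both batches. Postn, also a matrix gene of fibroblasts, held most of the pericyte sum in Batch 1. The genes at 0 in Batch 1 were Cnn1, Ednrb and Lgr6 of the former list and Agtr1a, Art3, Mcam and Vsnl1 of the latter. The part of these markers in the differences was not tested.

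Markers of endothelial, immune, mesothelial, cartilage and nerve cells were low. In the order Batch 1 and Batch 2, the 8 endothelial markers outside the rule summed to 0.498 and 1.86 per 10000 with 5 and 3 of them at 0, the 7 immune markers to 0.498 and 1.41 with 5 and 3 at 0, and the 5 mesothelial markers to 0.747 and 0.192 with 3 and 3 at 0. The 11 cartilage markers summed to 0.871 and 0.321 with 8 and 9 at 0, and the 6 Schwann and nerve markers to 0.124 and 0.577 with 5 and 3 at 0. The 9 epithelial markers summed to 6.10 and 23.0, against 23.4 and 22 in alveolar-gated, 15.2 and 14.4 in Acta2-positive and 5.66 and 19.3 in low-gate cells. In the members most of it was Sftpc, a surfactant gene, at 4.61 and 16.3 in the members and at 31.6 and 11.0 in endothelial-gated cells, which should lack it. None of 5 cell cycle genes tested was called in any comparison of the members with another class. Jun and Atf3 of the 14 immediate early genes were higher than in alveolar-gated cells, with Jun at 4.23 and 25 against 1.30 and 10.9 (log2 fold change 1.25 ± 0.25, adjusted p = 0.0034). Whether dissociation or free RNA had a part in the differences was not tested.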

How the data were processed

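The deposited values were UMI counts, 1 table for each library, which the authors made with Drop-seq tools from reads aligned to mm10 with Bowtie2 2.2.7 (per the submitters' processing notes) and did not normalize. The matrices held 2389 and 7555 cells with at least 500 genes, of 4434206 and 23263012 UMIs, and 1 and 1940 cells above the 10% mitochondrial limit were left out. No doublet caller was run, and the limits on Epcam, Pecam1, Ptprc and Acta2 removed members that carried these genes.

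The members and the 26 gene lists were chosen with earlier results of these data known. Cells of 1 mouse are not replicates, so counts were summed per class and library and tested with edgeR 4.0.16 in R 4.3.3 (TMM, filterByExpr, quasi-likelihood test, library as block), with p adjusted by Benjamini-Hochberg over all genes tested and calls at 0.05. The comparison with all other collagen-limit cells used 4 sums with 1 residual degree of freedom, the 3 class comparisons 10 sums and the Mfap5 and Pi16 split 12 sums. With 1 mouse in each library, 2 libraries carry all the information on spread, and p-values measure the spread of classes between them. Classes of 1 library come from the same mouse, which pairs them, and their deviations correlated at 0.44, 0.38, 0.33, 0.33 and 0.10 over genes, in the order of the other cells, alveolar-gated, Acta2-positive and low-gate cells and the split. Named genes were those of the rule, list genes past the threshold or defining a class, and in each direction the 10 genes with the largest fold change, at least 1 UMI per 10000 in the higher class of both libraries and the same direction in both. Where few genes were called, others were named after their values were seen. Endothelial-gated cells had at least 2 UMIs of Pecam1, Cdh5 and Cldn5 and none of Col1a1, Col1a2, Epcam and Ptprc. Some list members went by older symbols (5 genes). Fits were tested on simulated data. DESeq2 1.42.0, other limits, thinning to 1000 UMIs and each library alone were alternatives. Sums and intervals were made in Python 3.11.15 (pandas 2.3.3, numpy 2.4.6, scipy 1.17.1), and plots with matplotlib 3.10.9. Coordinates are from GENCODE for GRCm38. Cell type assignments by the study were not used here.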

Additional observations from a re-analysis of the deposited data

Results flagged for a closer look

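In Batch 2, 26 cells above the 10% mitochondrial limit met every other limit of the rule, against 0 in Batch 1, where 1 cell in all was above it. They stand out because they lie outside every comparison. Their median depth was 1896.5 UMIs, 9 of them had Tgfbi and 3 had Dcn or Dpt. No group held enough libraries for a check of single samples, and the difference between the batches was not tested.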

How the results depend on the processing

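Number of genes called outside the rule: against the other collagen-limit cells 157 genes were called, and 38 with DESeq2, 76 with cells thinned, 61 with a collagen limit of 10 UMIs, 81 with a mitochondrial limit of 5% and 25 without cells of very high depth. Against alveolar-gated cells 394 became 118 with the higher collagen limit and 222 with the 5% limit. Against Acta2-positive cells 29 became 13 with the higher collagen limit, 13 with the 5% limit, 76 with no filter on low counts and 48 with only members with Mfap5 or Pi16. Against low-gate cells 15 became 24 with DESeq2 (20 higher and 4 lower), 33 thinned, 4 with the higher collagen limit, 5 with the 5% limit, 55 with no filter, 3 with no mitochondrial limit and 24 without cells of very high depth. Only the members with Mfap5 or Pi16 gave 143 (DESeq2 138) and only those without gave 0 (DESeq2 0). The Mfap5 and Pi16 split moved from 60 to 93 with DESeq2, 9, 5 and 102 with the higher collagen limit, the 5% limit and no filter. The members numbered 70 with the 5% limit and 68 with at least 4 UMIs of the positive genes, in place of 120. Without the replicate block, which pairs classes of the same mouse, the calls were 0, 56, 0, 0 and 0 in the order of the other cells, alveolar-gated, Acta2-positive and low-gate cells and the split, with 390, 719, 240, 254 and 506 genes at an unadjusted p under 0.05.

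Among 97 named gene results, 5 of 1169 values reversed, all on splitting the members: against Acta2-positive cells Enpp2 at -1.93 (with Mfap5 or Pi16) and Ptn at -0.78 (without), and against low-gate cells Gpc3 at -0.047, Gsn at -0.11 and Ptn at -0.14 (without). Of the rest 827 kept their side of the threshold or moved by less than the spread, 260 no longer passed and 77 moved by more than the spread in the same direction. All 77 came from leaving out a library: 34 of 97 named gene results moved without Batch 1 and 43 of 97 without Batch 2. The cause was not tested beyond the construction of fewer cells or genes. Leaving out a library leaves 1 sum for each class and no residual degrees of freedom, so no count was made without it. Depth limits genes with few UMIs, such as Pi16 with 5 and 1.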

Other observations

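The 16 genes of the cell cycle list summed to 13.8 and 3.91 UMIs per 10000 in the members, against 5.89 and 5.22 in alveolar-gated cells. The members thus lay above that class in Batch 1 and below it in Batch 2. The list includes Cdkn1c, a cyclin-dependent kinase inhibitor also on the imprinted list, so the sum is not a measure of dividing cells. The 20 genes of WNT signalling summed to 6.35 and 8.91 in the members, against 6.29 and 5.41.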
